A study of Mus musculus with 6 samples.

Results

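The genes described here encode the proteins of the cytosolic ribosome. They were chosen by symbol alone: a symbol that starts with Rpl or Rps followed by a digit, together with Rplp0, Rplp1, Rplp2 and Rpsa, leaving out the S6 kinase genes and symbols of pseudogenes. The rule found 80 of the 12718 genes measured. Of these, 48 encode proteins of the large subunit and 31 proteins of the small subunit, and the last is Rps19bp1, which encodes a protein that binds the Rps19 protein and is not itself part of the ribosome. Among the 48 and 31 are 4 paralogs of ribosomal protein genes, Rpl7l1, Rpl22l1, Rpl36al and Rps27l.

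ChIP-seq with an antibody against the N-terminal domain mapped RPB1, the catalytic subunit of RNA polymerase II, along the genome. The tissue was the adrenal gland of female mice of the strain 129 sv X CD1, aged 10 to 14 months. The compared groups were 3 WT mice and 3 mice of the genotype Armc5(-/-), called knockout (KO) below; the labels name no other allele or agent and state that both groups were female. Armc5 codes for an armadillo-repeat protein known as a substrate adaptor of the ubiquitin ligase CUL3, and its own counts were not analysed here.

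Ribosomal protein genes are transcribed by RNA polymerase II in nearly every cell, and in growing cells they are among its busiest short templates. Their mRNAs begin with a run of pyrimidines, the terminal oligopyrimidine (TOP) tract, through which translation of the whole family follows signalling by the kinase complex mTORC1. Initiating polymerase gathers at the start of a gene, elongating polymerase is spread over the gene body, and polymerase slows again beyond the polyadenylation site, so the 3 regions measured here cover different stages of transcription.

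The deposited counts give 3 values for each gene and library: one around the transcription start site (TSS), one over the gene body and one around the transcription end site (TES). Values below are CPM, counts divided by the TMM-scaled total of the region's own table and expressed per 1e+06, and gene body values are also given per kb of the gene's length in the RefSeq annotation of GRCm38.p6. How wide the TSS and TES windows are is not given in the sources used here, so levels of different genes in these regions are compared as if all windows had the same width. CPM of different regions are scaled separately, and a ratio of TSS or TES CPM to gene body CPM per kb is used only to compare genes and libraries with each other. The libraries held between 14511177 and 28190157 counts, of which 1133364 to 3406223 lay at the TSS, 12419812 to 22523647 in gene bodies and 958001 to 2294430 at the TES. WT replicates 1 and 2 and KO replicate 1 had the fewest counts. WT replicate 2 had the smallest share of its counts at the TSS, 7.81%, and the largest in gene bodies, 85.6%. All 8 adrenal cortex markers were in the tables with none at 0, and their summed TES occupancy was 3333 to 7561 CPM in WT against 5102 to 6409 CPM in KO libraries. In bulk tissue, fewer cells of a type and less polymerase per cell cannot be told apart.

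The promoters are shown first for genes that the values below return to. RefSeq for GRCm38.p6 gave a promoter window, 250 bases before to 50 bases after an annotated start, for 61 of the 80 genes. For 51 of the 61, that start is the outer end of the gene's annotated span, and for 8 it lies more than 100 bases inside the span. The printed stretch runs 5′ to 3′ on the gene's strand, 120 bases in all, of which the last 20 begin at the annotated start. Capitals mark matches, on either strand, to the ETS core CCGGAAG, the YY1 core AAGATGGC, the E-box CACGTG, the TATA box TATAAA, the CCAAT box CCAAT, the NRF1 core GCATGCGC and the element CTCGCGAG, and runs of at least 8 C or T bases on the gene's strand that start within 60 bases of the annotated start. Neighbouring matches can overlap and then share their capitals. The first set holds 3 of the genes with the highest TSS occupancy in WT:
Rpl36al (chr12:69184048-69184167, minus strand): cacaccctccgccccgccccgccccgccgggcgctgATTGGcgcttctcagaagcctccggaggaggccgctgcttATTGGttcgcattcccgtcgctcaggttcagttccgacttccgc
Rps6 (chr4:86857348-86857467, minus strand): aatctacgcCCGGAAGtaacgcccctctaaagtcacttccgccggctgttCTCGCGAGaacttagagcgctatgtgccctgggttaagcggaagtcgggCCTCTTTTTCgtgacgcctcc
Rpl23 (chr11:97782420-97782539, minus strand): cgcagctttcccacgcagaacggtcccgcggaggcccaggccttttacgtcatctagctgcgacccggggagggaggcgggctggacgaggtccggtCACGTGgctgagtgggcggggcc

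The next set holds genes with low TSS occupancy for the occupancy of their gene bodies (Rps2 and Rpl35), and Rpl41, whose TSS value differed most between libraries:
Rps2 (chr17:24719963-24720082, plus strand): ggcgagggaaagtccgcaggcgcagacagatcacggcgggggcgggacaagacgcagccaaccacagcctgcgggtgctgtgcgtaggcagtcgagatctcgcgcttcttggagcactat
Rpl35 (chr2:39005112-39005231, minus strand): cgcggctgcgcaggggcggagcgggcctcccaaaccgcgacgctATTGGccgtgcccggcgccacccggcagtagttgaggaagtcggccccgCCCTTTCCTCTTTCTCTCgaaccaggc
Rpl41 (chr10:128549149-128549268, minus strand): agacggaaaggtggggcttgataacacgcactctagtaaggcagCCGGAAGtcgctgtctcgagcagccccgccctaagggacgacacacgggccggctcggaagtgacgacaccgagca

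The last set holds the genes with the largest log2 fold changes between genotypes in the gene body (Rplp0 and Rpl22l1), the gene with the most occupied body per kb (Rps28) and the gene Rpl7a, for its long pyrimidine run:
Rplp0 (chr5:115559367-115559486, plus strand): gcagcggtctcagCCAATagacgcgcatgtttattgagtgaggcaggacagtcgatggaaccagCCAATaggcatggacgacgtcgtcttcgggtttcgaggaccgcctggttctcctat
Rpl22l1 (chr3:28805408-28805527, plus strand): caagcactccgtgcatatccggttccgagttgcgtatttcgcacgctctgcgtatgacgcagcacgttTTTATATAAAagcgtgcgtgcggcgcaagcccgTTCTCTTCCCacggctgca
Rps28 (chr17:33824543-33824662, minus strand): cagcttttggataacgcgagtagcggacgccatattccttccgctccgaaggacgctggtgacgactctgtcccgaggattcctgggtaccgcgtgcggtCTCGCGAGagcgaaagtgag
Rpl7a (chr2:26910707-26910826, plus strand): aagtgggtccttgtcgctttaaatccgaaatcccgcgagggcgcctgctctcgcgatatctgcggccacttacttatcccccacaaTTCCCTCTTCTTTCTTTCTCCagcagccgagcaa

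Pyrimidine runs stood out among the letters shared by these promoters. A run of at least 8 C or T bases lay between 60 bases before and 40 bases after the annotated start in 44 of the 61 windows, which is 72.1%, against 32.7% of the 9911 genes with a window. The median longest run was 10 bases in the ribosomal protein genes and 6 bases in all genes. The run of Rpl7a starts just before the annotated start and crosses it, as do those of Rps6 and Rpl35. No run of that length crosses the start in the printed stretches of Rps2, Rpl41 and Rps28.

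The ETS core was found in 23 of the 61 windows (37.7%), against 18.2% of all windows of the same length. The genes with it had a median TSS occupancy of 99.4 CPM in WT, and those without it 153.5 CPM. Genes with the TATA box also had the lower median, 127.9 against 139.9 CPM. For the pyrimidine run and every other element searched, the genes with it had the higher median, such as 165.9 against 125.4 CPM for the CCAAT box. The element CTCGCGAG was found in 6 windows, which is 9.84% against 1.95% of all windows; the printed stretches of Rps6 and Rps28 carry it. The YY1 core was in 8.20% of the windows against 4.63% of all, and the TATA box in 9.84% against 6.60%. The CCAAT box, in 32.8% against 38.7% of all windows, the E-box, in 8.20% against 10.2%, and the NRF1 core, in 3.28% against 5.61%, were not more frequent than in other promoters. These matches are letters in a window and say nothing of a factor's binding.

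In WT glands, ribosomal protein genes carried much polymerase for their length. Gene body occupancy per kb had a median of 9.81 CPM per kb over the 80 genes, 5.66 times the median of all genes, 1.73 CPM per kb. All 80 genes lay above that all-gene median, and 74 lay above the 90th percentile of all genes. At the TES the median was 169.6 CPM against 48.3 CPM for all genes, with 78 of the 80 above the all-gene median and 56 above the 90th percentile. The difference was smaller at the TSS, where the median was 139.5 CPM against 54.3 CPM, with 70 genes above the all-gene median and 33 above the 90th percentile. Before division by length the gene bodies held a median of 32.2 CPM, less than the 42.8 CPM of all genes. The genes are short, with a median span of 3169.5 bp against 22906 bp for all matched genes, and 67 of the 80 are shorter than 5 kb. A TSS or TES window can therefore lie partly over the body of the same gene or, for the 33 genes within 1 kb of another named gene, over a neighbour.

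**Figure D1:**
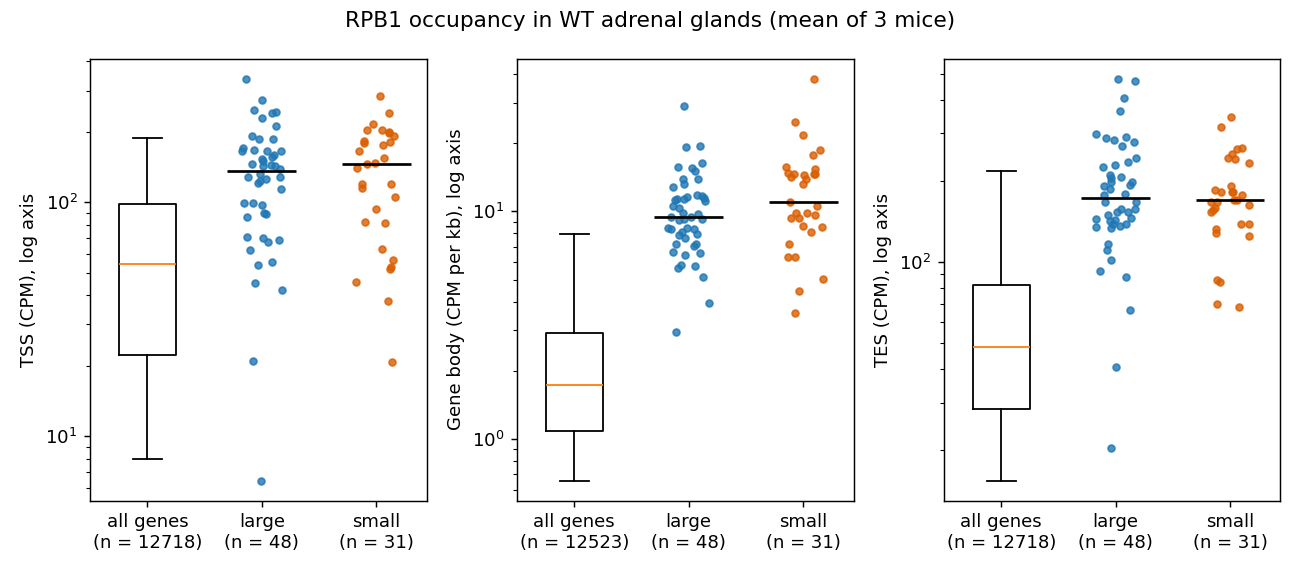
RPB1 occupancy in WT adrenal glands at the TSS (CPM), in the gene body (CPM per kb) and at the TES (CPM), each on a log axis. Each point is the mean of 3 mice for 1 gene of the large (n = 48) or small subunit (n = 31), horizontal lines are the medians of these genes, and the box gives the median and quartiles of all genes with whiskers at their 5th and 95th percentiles; most points lie above the boxes in the gene body and TES panels.

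Large and small subunit genes had similar levels at the TSS and TES, and small subunit genes had the higher median per kb in the gene body. Large subunit genes had medians of 135 CPM at the TSS, 9.47 CPM per kb in the gene body and 172 CPM at the TES, and small subunit genes had 145 CPM, 11.0 CPM per kb and 169 CPM. In WT replicates 1, 2 and 3 the gene body medians were 11.9, 7.55 and 14.0 CPM per kb for small subunit genes. Those of large subunit genes were 9.46, 6.75 and 11.7 CPM per kb, and they were also the lower in each KO library. Before division by length the WT medians were 31.1 CPM for large and 32.3 CPM for small subunit genes. Large subunit genes were then the higher in WT replicates 1 and 2, with 31.9 and 22.8 CPM against 31.2 and 22.1 CPM. They were the lower in WT replicate 3, with 40.6 against 41.2 CPM, and in each KO library. The part of length in the difference per kb was not tested. At the TSS and TES the order changed between WT libraries. The SD of the WT library medians of the 80 genes was 14.4 CPM at the TSS, 2.61 CPM per kb in the gene body and 48.1 CPM at the TES (n = 3). Both sets share these libraries, so that SD does not measure the spread of their difference. The 29 genes with small nucleolar RNA genes inside their span had a median of 9.82 CPM per kb in the body, against 9.81 CPM per kb for the other 51. The 4 genes on the X chromosome, Rpl10, Rpl36a, Rpl39 and Rps4x, had a lower median of 6.80 CPM per kb, and 82.9 CPM at the TSS.

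The 80 genes differed widely from each other in where the polymerase lay. Rpl36al had the highest TSS occupancy, 337 ± 47.7 CPM (SD, n = 3), followed by Rps6 with 285 ± 32.9 CPM, Rplp1 with 273 ± 35.4 CPM and Rpl23 with 248 ± 18.7 CPM. These neighbours in the order overlap within their SD. The gene Mgat2 lies 91 bp from Rpl36al, and its part in the value of Rpl36al was not tested. Rps6 encodes the small subunit protein phosphorylated by the S6 kinases, and Rplp1 a protein of the stalk that recruits elongation factors to the ribosome. At the other end stood Rpl3 with 6.46 ± 1.63 CPM, Rps2 with 20.6 ± 1.81 CPM, Rpl35 with 20.9 ± 5.63 CPM and Rps14 with 37.7 ± 19.4 CPM.

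The low TSS values of these 4 genes did not go with empty genes. Rpl3, which encodes a protein near the catalytic centre of the large subunit, had 19.2 ± 5.49 CPM per kb in its body, the 6th highest of the 80, and 291 ± 100.4 CPM at the TES. Its 8 to 24 TSS counts per library were also the fewest of the 80 genes. Rps14 had the 3rd highest body occupancy, 24.6 ± 3.82 CPM per kb. The ratio of TSS CPM to body CPM per kb was 0.376 ± 0.213 for Rpl3, 1.13 ± 0.146 for Rps2 and 1.49 ± 0.554 for Rps14, against a median of 14.4 over the 80 genes. In Rps2 the RefSeq span begins 1942 bases before the start site of the window printed above. Whether the authors' TSS window lay at that outer end, and the part this has in its low TSS value, was not tested.

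The most occupied gene bodies were those of Rps28 with 38.3 ± 7.60 CPM per kb, Rpl41 with 28.9 ± 12.0 CPM per kb, Rps14, and Rps27 with 21.6 ± 5.95 CPM per kb. Rps28, Rpl41 and Rps27 are among the shortest genes of the family, and over the 80 genes body occupancy per kb and length had a Spearman correlation of -0.57. That correlation is a description across genes that share the length in its calculation. The least occupied bodies were Rpl22 with 2.97 ± 0.809 CPM per kb, Rps27l with 3.57 ± 0.954 CPM per kb, Rpl36 with 3.94 ± 1.10 CPM per kb and Rps4x with 4.48 ± 1.24 CPM per kb. The starts of the promoter windows of Rpl22 and Rps27l lie 1290 and 1462 bases inside their annotated spans, so the span used for their length begins well before that start.

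At the TES the order was different again. Rpl7l1, whose product takes part in the assembly of the large subunit, was highest with 479 ± 110.4 CPM, followed by Rpl12 with 469 ± 81.6 CPM, Rpl13a with 406 ± 111 CPM and Rplp0 with 363 ± 89.0 CPM. The gene 2310039H08Rik lies 500 bp from Rpl7l1 and Lrsam1 58 bp from Rpl12, and their part in these values was not tested. Rpl11 was lowest with 20.5 ± 11.2 CPM and Rpl26 next with 40.8 ± 4.57 CPM, and these were the 2 genes below the all-gene median. Rpl11, with Rpl5, is known for binding the p53 regulator MDM2 when ribosome assembly fails. Its gene body, with 63.2 ± 12.1 CPM, ranked 4th of the 80. Across the 80 genes, TSS and gene body occupancy per kb were unrelated, with a Spearman correlation of -0.01, and TSS and TES occupancy had 0.29; both share their libraries and are given as descriptions.

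**Figure D2:**
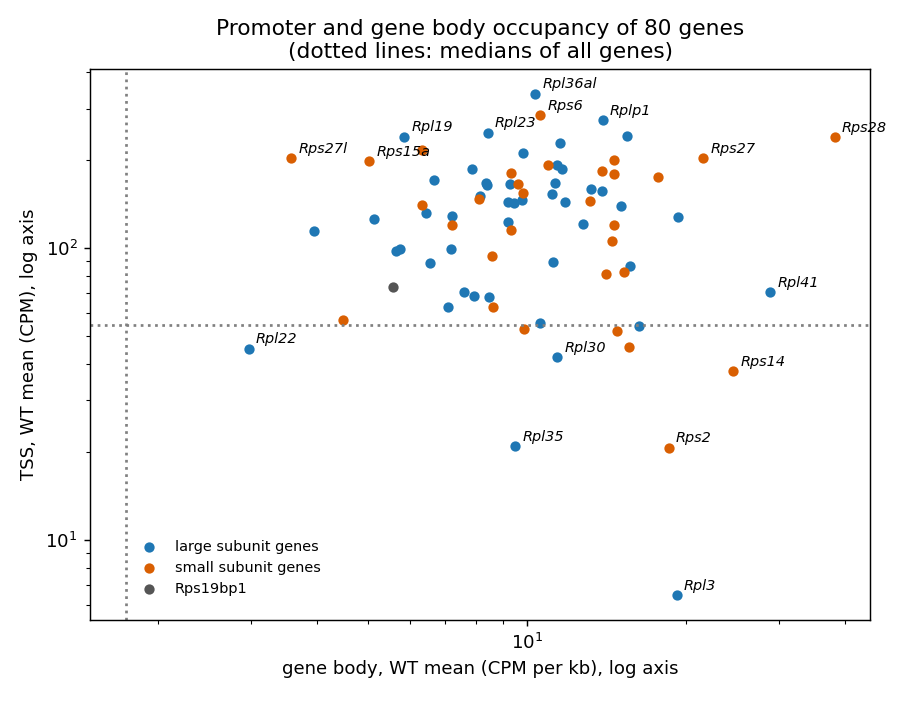
TSS occupancy (CPM) against gene body occupancy (CPM per kb), both on log axes and both means of 3 WT mice, for each of the 80 genes. Dotted lines are the medians of all genes, 54.3 CPM and 1.73 CPM per kb; every gene lies to the right of the vertical line, and Rpl3, Rps2, Rpl35 and Rps14 lie lowest.

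Ratios of TSS or TES CPM to gene body CPM per kb were lower in ribosomal protein genes than over all genes, most of which are longer. The median ratio of TSS CPM to body CPM per kb was 14.4, against 27.2 for all genes, and 8 of the 80 exceeded that all-gene median. The TES ratio had a median of 17.9 against 27.5, with 17 of the 80 above. Rps27l, a paralog known as a p53 target, had the highest TSS ratio, 60.1 ± 20.6, with 44.3, 83.3 and 52.7 in the 3 WT libraries. Rpl19 followed with 42.9 ± 10.4 and Rps15a with 41.7 ± 8.91. The start of the promoter window of Rpl19 lies 4707 bases inside its span of 8491 bp, and that of Rps27l 1462 bases inside its span. The part of the length used in their high ratios was not tested. The annotated length enters each ratio, and a shorter assumed length lowers it. Over the 80 genes, length had a Spearman correlation of 0.28 with the TSS ratio and 0.55 with the TES ratio. Other genes of similar length were not compared, so the part of length in the low ratios of the family was not tested.

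The libraries differed from each other as a family, and this bears on every comparison of genotypes. In gene bodies, the 80 genes together held 0.273%, 0.193% and 0.374% of the counts of WT replicates 1, 2 and 3, and 0.290%, 0.376% and 0.347% of KO replicates 1, 2 and 3. WT replicate 2 was the lowest of the 6 libraries for 79 of the 80 genes. The median CPM of the 80 gene bodies was 31.5, 22.7 and 40.6 in WT against 31.6, 43.2 and 39.1 in KO libraries, so WT replicate 3 stood with KO replicates 2 and 3, and KO replicate 1 with WT replicate 1. For 59 of the 80 genes, all of the 3 libraries with the fewest counts lay below all of the other 3 in the gene body, against 20.5% of all genes. At the TES this held for 26 of the 80 genes, against 9.95% of all genes, and WT replicate 2 was the lowest library for 62. The part of depth in these differences was not tested.

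At the TSS, WT replicate 2 held the smallest share as well, but it was the lowest library for only 27 of the 80 genes. The 80 genes held 1.16%, 0.859% and 1.12% of TSS counts in WT against 1.14%, 1.06% and 1.10% in KO libraries. All 3 libraries with the fewest counts lay above the other 3 in 29 of the 80 genes and below them in 20, against 17.7% and 15.7% of all genes. A few promoters were extreme. Rpl41, which encodes a very small peptide of the large subunit, had 112, 88.9 and 10.6 CPM in the WT libraries against 146, 15.1 and 13.5 CPM in the KO libraries. Its lowest value among the 3 libraries with the fewest counts was 5.91 times the highest among the other 3, the 2nd largest such ratio of 12682 tested genes.

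Rps26 showed the same order, with 72.4, 69.3 and 13.8 CPM in WT against 70.3, 17.5 and 16.1 CPM in KO libraries. Rps23 had 73.0, 52.7 and 11.2 CPM in WT against 71.5, 14.8 and 14.6 CPM in KO libraries. Rpl24, Rpl27 and Rps3a1 also passed a ratio of 2, which made 6 of the 80 genes, against 1.41% of all genes. The ratio sets WT replicates 1 and 2 and KO replicate 1 against the other 3 libraries. That each of the 6 splits across genotypes in this way therefore follows from how they were picked. These 6 were singled out after their values had been seen.

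**Figure D3:**
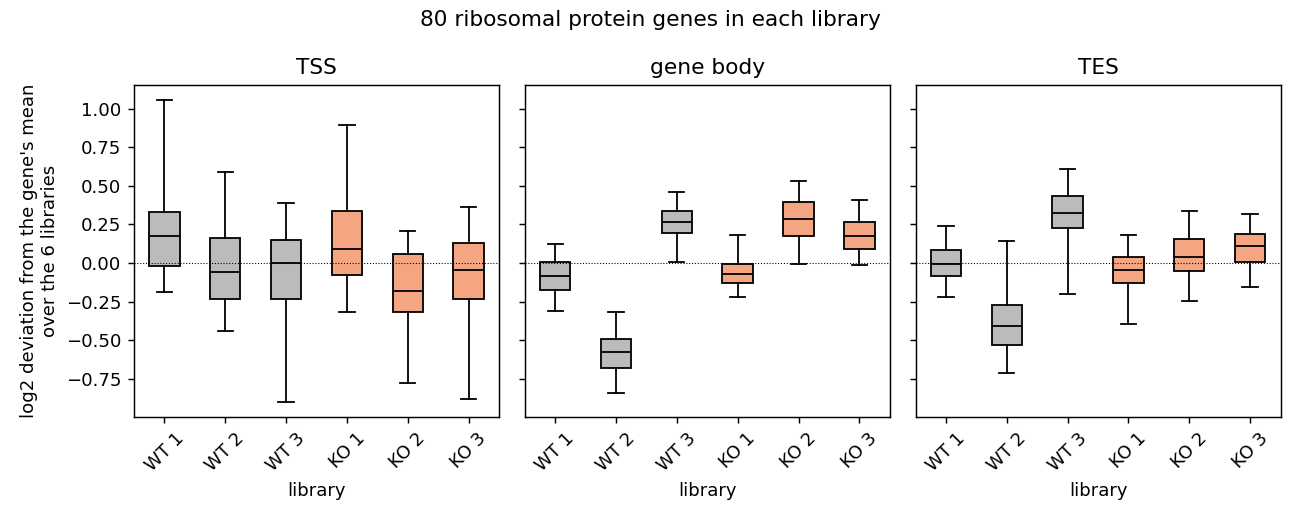
Deviation of each of the 80 genes in each library from the gene's own mean over the 6 libraries, as log2 CPM, for each of the 3 regions. Boxes give the median and quartiles and whiskers the 5th and 95th percentiles, with WT libraries in grey and KO libraries in orange; WT 2 sits lowest for gene bodies (median -0.57) and TES (-0.41), and WT 3 and KO 2 highest in the gene body (0.26 and 0.28).

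Whether loss of Armc5 changed RPB1 occupancy of ribosomal protein genes was then asked in each region. No gene of the family passed the test in any region. At the TSS, 0 of the 80 had an adjusted p under 0.05 (edgeR quasi-likelihood test, Benjamini-Hochberg over 12682 genes), where 0.339% of all tested genes did, and 0 had an unadjusted p under 0.05, where 5.57% of all genes did. DESeq2 and limma-voom also called 0, with 0 at an unadjusted p under 0.05. The log2 fold changes of KO over WT ran from -0.58 to 0.26 with a median of -0.06, against -0.01 for all genes. They were above 0 in 31 of the 80 genes (48.4% of all genes), but in 66 of the 80 when the 3 regions were scaled together, a setting that moved the median of all genes by 0.24.

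The TSS genes with the smallest p-values fell short by far. Rpl5 had 148, 144 and 103 CPM in WT against 141, 78.5 and 65.9 CPM in KO libraries, a log2 fold change of -0.47 ± 0.27 (SE; adjusted p = 0.952 by edgeR). KO replicate 1 lay within the WT range and the other 2 below it. WT replicates 1 and 2 and KO replicate 1, the libraries with the fewest counts, all lay above the remaining libraries. Without KO replicate 1 the log2 fold change was -0.85, with an adjusted p of 0.0988 by edgeR, the smallest of the settings tried. Both KO libraries left in that fit had more counts than WT replicates 1 and 2, so it cannot fully separate depth from genotype. With a library left out the log2 fold change ran from -0.85 to -0.26, and its highest value under any setting was -0.21. Rps2 had 21.2, 18.6 and 22.1 CPM in WT against 12.9, 9.58 and 20.5 CPM in KO libraries, a log2 fold change of -0.54 ± 0.35. Among genes with values above 0, Rplp0 had 0.26 ± 0.18, Rpl23a 0.25 ± 0.16 and Rps21 0.24 ± 0.16. Rpl9, with 231, 207 and 195 CPM in WT against 193, 175 and 179 CPM in KO libraries, was the only one of the 80 whose groups did not overlap at the TSS; the KO libraries were lower, which held for 4.94% of all genes, and 0 of the 80 had them higher, which held for 6.46%.

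In the gene body most log2 fold changes of the family were above 0, a pattern that rested on WT replicate 2. Of the 80 genes, 0 were called at an adjusted p under 0.05 by edgeR, where 0.252% of all tested genes were, and 4 had an unadjusted p under 0.05 (5.05% of all genes). DESeq2 and limma-voom also called 0, with 6 and 4 at an unadjusted p under 0.05. The log2 fold change was above 0 in 76 of the 80 genes, against 46.3% of all genes, with a median of 0.23 (0.24 in large and 0.22 in small subunit genes). Without WT replicate 2 the median was 0.02, with 50 of the 80 above 0. Without WT replicate 3 it was 0.44 with all 80 above 0, and with a term for the 3 libraries with the fewest counts it was 0.09 with 64 above 0.

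Rps2, whose protein lies at the entry of the mRNA channel of the small subunit, had the smallest p in the gene body. Its values were 71.7, 55.3 and 85.0 CPM in WT against 93.4, 105 and 110.3 CPM in KO libraries, and every KO library lay above every WT library. The log2 fold change was 0.54 ± 0.18, with an adjusted p of 0.649 by edgeR; without WT replicate 2 it was 0.40. Rplp0, the base of the stalk, had 49.9, 32.0 and 65.8 CPM in WT against 70.2, 88.6 and 86.3 CPM in KO libraries, again without overlap. Its log2 fold change was 0.73 ± 0.25 (adjusted p = 0.723 by edgeR), and 0.50 without WT replicate 2.

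Rpl22l1, the paralog of Rpl22, had 27.1, 18.2 and 30.8 CPM in WT against 29.9, 55.6 and 37.6 CPM in KO libraries. KO replicate 1 overlapped the WT range, and the log2 fold change was 0.69 ± 0.27 (adjusted p = 0.912 by edgeR), or 0.41 without KO replicate 2. Rpl36al and Rps21 completed the 4 genes whose KO libraries all lay above the WT libraries, and 0 genes had them all below; among all genes these shares were 6.51% and 3.87%. Rps21 had 15.0, 11.2 and 15.8 CPM in WT against 19.3, 25.2 and 16.4 CPM in KO libraries. The 4 genes with a log2 fold change below 0 were led by Rpl7l1 with -0.10, Rps28 with -0.06 and Rps15a with -0.04, all smaller than their SE of 0.19, 0.17 and 0.26.

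**Figure D4:**
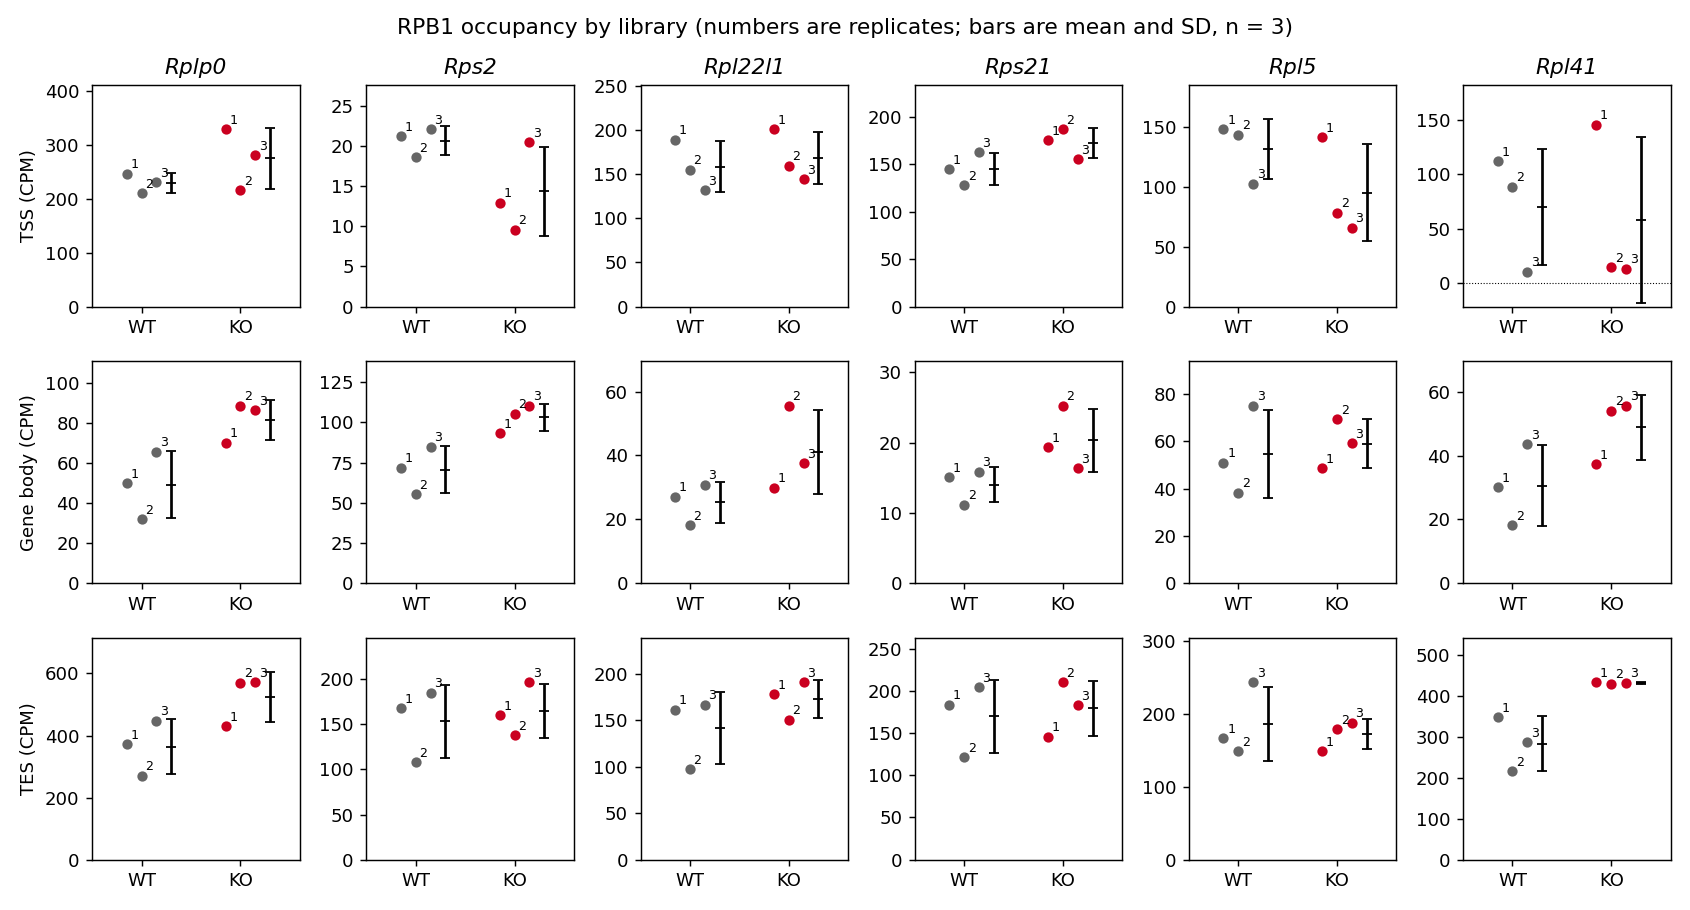
CPM in each library in the 3 regions for 6 genes, with WT libraries in grey, KO libraries in red, replicate numbers beside the points, and the mean ± SD of 3 mice as a bar. The KO values of Rplp0 and Rps2 lie above the WT values in the gene body, and the TSS values of Rpl41 fall into a high and a low set that each hold both genotypes; the dotted line in that panel marks 0, below which its SD bar extends.

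At the TES the family was centred near 0. Of the 80 genes, 0 were called by edgeR, DESeq2 or limma-voom at an adjusted p under 0.05, where edgeR called 0.915% of all tested genes, and each tool gave 3 at an unadjusted p under 0.05 (6.85% of all genes by edgeR). The median log2 fold change was 0.02, with 44 of the 80 above 0 (47.8% of all genes). It was -0.16 with 16 above 0 without WT replicate 2, 0.20 with 71 above 0 without WT replicate 3, and -0.08 with 23 above 0 when the 3 regions were scaled together. The direction at the TES thus changed with a single WT library.

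Rps14, the gene lost in the human 5q deletion syndrome, had 72.7, 112 and 67.4 CPM at the TES in WT against 103, 128 and 128 CPM in KO libraries. Its groups overlapped through WT replicate 2, and the log2 fold change was 0.54 ± 0.24 (adjusted p = 0.605 by edgeR). Rpl41 had 348, 216 and 286 CPM in WT against 433, 429.6 and 432 CPM in KO libraries, with no overlap and a log2 fold change of 0.60 ± 0.27 (adjusted p = 0.617 by edgeR). Rpl41 was thus higher at its end in every KO library while its start split by library. Rpl13a, Rps20 and Rpl36a also had all KO libraries above all WT libraries. In all this held for 5 of the 80 genes, against 6.70% of all genes, and 0 had them all below, against 4.83%. Among genes with values below 0, the smallest p-values were those of Rpl35 with -0.37, Rps4x with -0.31 and Rpl39 with -0.28. They depended on single libraries: Rpl35 was -0.08 without WT replicate 3, Rps4x -0.58 without KO replicate 2 and -0.18 without KO replicate 3, and Rpl39 -0.43 without WT replicate 2.

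The ratios of the ends to the gene body were tested as a region by genotype interaction. For the TSS ratio 0 of the 80 genes were called, as were 0% of all tested genes, and 2 had an unadjusted p under 0.05 (3.64% of all genes) both by edgeR and by limma on the log2 ratio. The log2 fold change was above 0 in 9 of the 80, against 47.8% of all genes, with a median of -0.30. The median was -0.17 without WT replicate 2, with 18 above 0, and -0.20 without KO replicate 2, but -0.55 without WT replicate 3 and -0.49 without KO replicate 1. It was -0.13 with a term for the 3 libraries with the fewest counts, with 25 above 0. Rps2 had TSS ratios of 1.13, 1.28 and 0.989 in WT against 0.527, 0.346 and 0.707 in KO libraries, with no overlap. Its log2 fold change was -1.12 ± 0.31 (adjusted p = 0.955 by edgeR), from 18 to 69 TSS counts per library. Rpl36al had 28.1, 39.4 and 32.7 in WT against 21.0, 20.9 and 23.9 in KO libraries, a log2 fold change of -0.59 ± 0.19. Groups did not overlap in 4 of the 80 genes (Rps2, Rpl36al, Rps21 and Rpl32), all lower in KO libraries, where 4.97% of all genes were lower and 4.50% higher. The lowest log2 fold change of the ratio was that of Rpl41, -1.57, the gene whose TSS differed most between libraries.

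The TES ratio gave the largest number of separated genes. Of the 80, 0 were called by edgeR, against 0.0158% of all tested genes, while 11 had an unadjusted p under 0.05, against 5.70% of all genes. By limma on the log2 ratio 0 were called and 5 had an unadjusted p under 0.05. The log2 fold change was above 0 in 13 of the 80 (48.0% of all genes), with a median of -0.22. That median stayed between -0.30 and -0.15 under the other settings tried, and was -0.19 without WT replicate 2. In 18 of the 80 genes every KO library lay below every WT library, against 6.64% of all genes, and in 2 (Rpl4 and Rpl13a) above, against 5.52%. The 80 genes share their libraries, so the 18 are not 18 separate observations.

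Rpl29 had TES ratios of 18.4, 21.3 and 18.9 in WT against 11.2, 9.96 and 14.1 in KO libraries. Its log2 fold change was -0.73 ± 0.21, with an unadjusted p of 0.00288 and an adjusted p of 0.629 by edgeR. Rpl35, a protein beside the exit tunnel of the large subunit, had 13.7, 18.1 and 16.0 in WT against 9.86, 9.81 and 11.3 in KO libraries, a log2 fold change of -0.61 ± 0.18 (adjusted p = 0.737 by edgeR). Rpl38, which is known for its part in the translation of Hox mRNAs, had 29.0, 31.2 and 35.0 in WT against 20.9, 24.4 and 19.9 in KO libraries, a log2 fold change of -0.55 ± 0.18 (adjusted p = 0.794 by edgeR). In all 3 genes the KO values lay below the WT values in every library, and none passed the test over all genes.

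**Figure D5:**
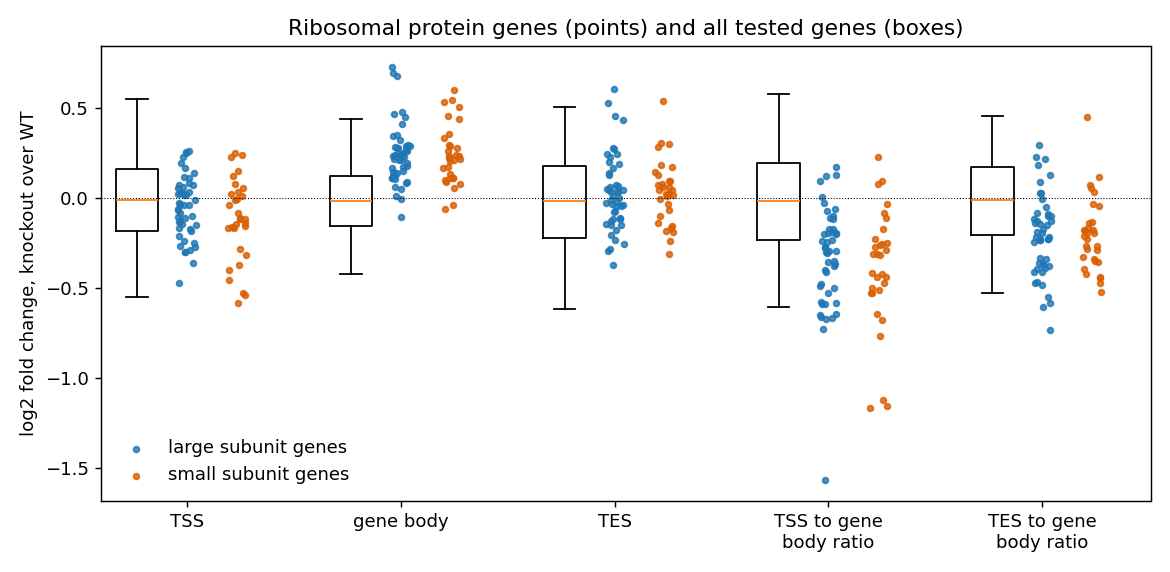
Log2 fold change of KO over WT for large and small subunit genes (points), and for all tested genes (boxes with median and quartiles, whiskers at the 5th and 95th percentiles), for TSS, gene body and TES occupancy and for the 2 ratios. Points lie mostly above 0 in the gene body (76 of 80, Rps19bp1 included in the count but not drawn) and mostly below 0 for the ratios (9 and 13 of 80 above 0); none of the points passed the test.

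Genes with roles beyond the ribosome's structure or in its disease showed no difference that passed the test. The stalk genes Rplp1 and Rplp2 had gene body log2 fold changes of 0.28 ± 0.21 and 0.26 ± 0.29. Rps6 had TSS values of 314, 249 and 293 CPM in WT against 304, 254 and 251 CPM in KO libraries, groups that overlapped (log2 fold change -0.09 ± 0.17). Rps19, the gene most often mutated in Diamond-Blackfan anaemia, had 71.9, 62.0 and 24.6 CPM at the TSS in WT against 77.1, 29.0 and 39.9 CPM in KO libraries. Its TSS, like that of Rpl41, was high in the 3 libraries with the fewest counts and low in the other 3.

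Rpl11 had gene body values of 60.5, 52.7 and 76.4 CPM in WT against 60.4, 74.6 and 71.2 CPM in KO libraries, and its partner Rpl5 51.0, 38.3 and 75.1 CPM and 48.5, 69.4 and 59.1 CPM; both overlapped. Rpsa, also known as the laminin receptor, had a TES log2 fold change of 0.09 ± 0.27. Rps27a, which is made as a fusion with ubiquitin, had 84.9, 98.2 and 64.7 CPM at the TSS in WT against 106, 69.2 and 69.5 CPM in KO libraries, a log2 fold change of -0.01 ± 0.22. Rplp1, Rplp2, Rps6, Rps19, Rpl11, Rpl5, Rpsa and Rps27a each had an unadjusted p over 0.05 by edgeR in all 3 regions. Among the other genes picked by role and described above, Rplp0 had an unadjusted p of 0.0189 by edgeR in the gene body. Rps14 had an unadjusted p of 0.0296 by edgeR at the TES.

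Paralogs and their parent genes are set side by side here without a test. Rpl36al had 337 CPM at the TSS in WT, where Rpl36a had 97.2 ± 7.79 CPM; at the TES the 2 had 136 ± 41.6 and 66.6 ± 6.50 CPM. Rpl22l1 had 159 ± 28.7 CPM at the TSS, where Rpl22 had 45.1 ± 21.5 CPM, and 13.2 ± 3.37 CPM per kb in the body, where Rpl22 had 2.97 ± 0.809 CPM per kb. Rpl7l1 had 479 CPM at the TES, where Rpl7 had 92.4 ± 29.3 CPM. Rps27l and Rps27 had the same TSS level, 203 ± 31.1 and 203 ± 59.2 CPM, while their bodies had 3.57 and 21.6 CPM per kb. The values per kb rest on spans of 4899 bp for Rps27l, 982 bp for Rps27, 9647 bp for Rpl22 and 1917 bp for Rpl22l1. Gene body counts before division by length, in WT replicates 1 to 3, were 339, 147 and 474 for Rps27l. Those of Rps27 were 414, 175 and 575. Rpl22 had 431, 291 and 832 such counts, and Rpl22l1 had 490, 217 and 681. The spans of Rpl22 and Rps27l begin well before the starts of their promoter windows. Reads of near-identical copies may be split between genes, and RefSeq lists 321 pseudogenes named after ribosomal protein genes, so the values of single members are uncertain to that extent. Rps19bp1 had 73.2 ± 12.9 CPM at the TSS and 5.56 ± 2.23 CPM per kb in its body, lower than the medians of the family, and 247 ± 52.9 CPM at the TES, higher than the family's median.

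Other genes of the translation machinery also gave 0 calls at an adjusted p under 0.05 by edgeR in every region and ratio. They were taken from lists that were chosen with earlier results of these data known. The lists were 3 ribosomal protein genes that the symbol rule does not reach, 22 translation factors and other TOP mRNA genes, 40 ribosome assembly factors and 17 genes of mTORC1 and the S6 kinases. In the gene body 3 of 3, 12 of 22, 24 of 40 and 8 of 17 had a log2 fold change above 0, with medians of 0.29, 0.03, 0.05 and -0.01, beside the 0.23 of the 80 ribosomal protein genes. Of all genes, 46.3% were above 0 in the gene body, with a median of -0.02. At an unadjusted p under 0.05 by edgeR the gene body gave 0, 2, 1 and 1 genes in these lists, against 5.05% of all genes.

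Eef1b2, a subunit of the exchange factor for the elongation factor eEF1A, had the largest gene body value among them. It had 20.1, 15.9 and 28.5 CPM in WT against 37.3, 48.1 and 43.1 CPM in KO libraries, a log2 fold change of 0.99 ± 0.23 (adjusted p = 0.223 by edgeR). At the TES it had 76.9, 76.4 and 72.6 CPM in WT against 146, 127 and 117 CPM in KO libraries, a log2 fold change of 0.79 ± 0.23 with an adjusted p of 0.100 by edgeR. Bop1, a factor for maturation of the large subunit's rRNA, had 60.1, 54.1 and 65.2 CPM in its body in WT against 92.6, 115 and 112 CPM in KO libraries. Its log2 fold change was 0.83 ± 0.15, with an adjusted p of 0.0898 by edgeR, the closest to the threshold in these lists. Myc, a transcription factor known for driving ribosome production, had 70.5, 42.5 and 64.0 CPM in its body in WT against 92.3, 114 and 76.9 CPM in KO libraries, a log2 fold change of 0.68 ± 0.22 (adjusted p = 0.661 by edgeR).

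Markers of other cells moved between libraries too. The summed gene body occupancy of the 3 capsule and fibroblast markers in the tables, of 6 listed, was 115 to 306 CPM in WT against 82.0 to 101 CPM in KO libraries, with none at 0 and 2, Pdgfra and Col3a1, called lower at the TES by edgeR. WT replicate 2, the library lowest for ribosomal gene bodies, was the highest of the 6 for these markers and the lowest for the adrenal cortex markers, with 1420 CPM in gene bodies against 1854 to 2936 CPM in the other 5. The 6 chromaffin cell markers in the tables, of 7 listed, summed to 242 to 464 CPM in gene bodies of WT and 325 to 873 CPM of KO libraries, with none at 0. In gene bodies the 2 endothelial markers of 5 listed summed to 184 to 209 CPM in WT against 152 to 191 CPM in KO libraries. The single adipocyte marker of 4 had 9.23 to 41.3 CPM against 24.3 to 27.0 CPM there. The 4 macrophage markers of 6 summed to 71.7 to 76.4 CPM in WT gene bodies against 65.1 to 66.4 CPM in KO libraries. Their direction was the opposite at the TES, with 408 to 487 CPM in WT against 549 to 578 CPM in KO libraries. The part of cell composition in the ribosomal protein gene values was not tested.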

How the data were processed

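The authors deposited whole-number read counts per gene for the TSS, gene body and TES of 6 libraries. Per the submitters' processing notes, the builds were GRCm38 and mm10, and the tools named are BWA, Trimmomatic, bcl2fastq 2.20, Picard, HOMER, MACS2, limma and edgeR, with no role given. The sources used here do not give the counting tool, window widths, read filters or use of input libraries. A stacked count table and its log2 values were not used. The labels give 6 mouse numbers, so each library was taken as 1 mouse (n = 3 per genotype).

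Each table was tested in R 4.3.3 with edgeR 4.0.16 (TMM scaling, filterByExpr at 10 counts in enough libraries and 15 in total, quasi-likelihood F test, Benjamini-Hochberg adjustment over all tested genes, threshold 0.05). All 80 genes passed the filter in every test. For ratios, the interaction of region and genotype was tested with libraries as blocks. The SE was taken as the absolute log2 fold change divided by the root of F. Lengths and promoters came from RefSeq for GRCm38.p6; 12384 of the 12718 symbols matched, and 12523 with synonyms.

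DESeq2 1.42.0, limma 3.58.1, other scalings and filters, covariates and leaving out each library were tried. The scripts were tested on simulated data. The genes and lists were chosen with earlier results of these data known; library order, small nucleolar RNA hosts, X-linked genes and promoter letters were described after the values had been seen. Named genes were those with the 3 smallest p-values per direction and test, the 4 highest and 4 lowest levels per measure, genes picked by role, and paralogs with their parents. In the other lists they were the 2 with the smallest p per region, of which a selection is printed. Armc5 was not analysed here, and the values of some single genes are not reported here.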

Additional observations from a re-analysis of the deposited data

How the results depend on the processing

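Of the 80 genes, 0 were called in any region or ratio under any alternative tried. With the 3 regions scaled together the median TSS log2 fold change of the 80 genes was 0.20, and their WT medians were 12.5 CPM at the TSS, 13.6 CPM at the TES, 1.48 for the TSS ratio and 1.68 for the TES ratio, because CPM then refer to all counts. With 1 kb taken off each gene's length the WT medians were 14.8 CPM per kb in the gene body, 9.76 for the TSS ratio and 12.1 for the TES ratio. Leaving out 1 WT library moved the WT median TES ratio between 16.9 and 18.5.

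The gene body values of Rps15a, Rps28 and Rpl7l1, which lie near 0, changed sign. Rps15a was 0.013 by limma-voom and 0.024 with the replicate block, and ranged from -0.26 (without WT replicate 2) to 0.29 (without WT replicate 3) with a library left out. Rpl7l1 ranged from -0.26 to 0.077 and Rps28 from -0.19 to 0.10 over the same 2 libraries. The cause was not tested.

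Counts of calls over all genes moved more. At the TSS the 43 calls became 107 with the 3 regions scaled together, 95 by DESeq2, 75 with the mouse number series as a term, 158 with a term for the 3 libraries with the fewest counts, and 5 to 84 with a library left out. In the gene body the 32 became 0, 179, 0 and 95, and 0 to 37; at the TES the 116 became 61 with joint scaling, 184 with the depth term and 73 to 148. The TSS ratio's 0 became 27 with the depth term, and the TES ratio's 2 became 9, or 0 to 15 with a library left out.

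Replicate numbers are not stated to pair the mice. The correlations below cannot settle it, because each of the 3 libraries per genotype was centred on its own genotype's mean. Deviations of log2 CPM from the genotype mean were correlated between same-numbered libraries. These correlations were 0.437, -0.205 and 0.352 at the TSS, and 0.0764, -0.589 and 0.274 in gene bodies. At the TES they were 0.0353, -0.319 and 0.203. Not every library correlated best with its own number. With the replicate block, edgeR called 100 genes for the TSS, 0 for gene bodies and 194 for the TES, and 0 of the 80, whose median log2 fold changes were -0.05, 0.27 and 0.04.

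With 3 mice per genotype, the median SE of a log2 fold change of the 80 genes was 0.19 (TSS), 0.23 (gene body) and 0.26 (TES). The genes with the smallest unadjusted p-values did not pass the adjustment over all genes. Rpl3 had the fewest counts, 8 to 24 per library at the TSS.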
